A study of Mus musculus with 16 samples.

Results

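The transcriptome of macrophages washed from the airways of uninfected wild-type (WT) mice is described here. Whether the cells were at rest was not tested. The libraries were those titled WT control, numbered 1 to 4, which are 4 of the 16 libraries of the series. They were chosen by title and genotype label alone, and no measured value entered the choice. The series asked how male mice with and without Toll-like receptor 3 respond to Klebsiella pneumoniae in the lung. The genotype label of these 4 reads WT and the treatment label reads none, while the protocol speaks of mice given either bacteria or saline through the hypopharynx, so it is not stated whether the controls received saline. The source label names bronchoalveolar lavage, a rinse of the air spaces, and the cell type label names macrophages. The sources used here give neither strain nor age, and do not say how the macrophages were separated. They also leave unsaid whether a library stands for 1 mouse or a pool of mice. The spread below is therefore the spread between libraries. No other group is set beside these libraries, and no test between groups was made.

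Alveolar macrophages live on the surface of the air sacs, where they take up and break down surfactant, the lipid film that keeps the air sacs open, and swallow inhaled particles and microbes. They depend on the growth factor GM-CSF and on the transcription factor PPAR-gamma, keep their numbers largely by dividing in place, and are known in mice for a mixture of lipid-handling, lysosomal and scavenger genes. Resting cells hold most inflammatory genes at a low level, and genes such as those of chemokines can be switched on within a short time by microbial products.

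The libraries held 59640251, 43771717, 40627286 and 36486614 counts in the order 1 to 4, over 23159 gene symbols. A count of 0 allowed a level of up to 0.0503 CPM (counts per 1000000 counts of the library) in library 1 and up to 0.0822 CPM in library 4, taken as 3 counts of the total and covering counting error only. The table used here held no rows for ribosomal proteins or for genes of the mitochondrial genome, which were not analysed here, so each CPM value is a share of the remaining genes. Protein-coding genes took 98.8% ± 0.148 of the counts (SD, n = 4). CPM does not allow for transcript length, so an order of genes by CPM, or a gene's share of a summed CPM, speaks of counts, and levels of different genes are compared in TPM (transcripts per 1000000), computed here from the length of the longest principal transcript.

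The 4 libraries were not equally alike, and this bears on every value of spread below. Libraries 1 and 2 were close to each other, with a median absolute difference of 0.07 on the log2(CPM + 0.5) scale over the 8646 genes with a mean of at least 5 CPM, and with 4 genes that differed at least 2-fold on that scale. Libraries 3 and 4 differed by a median of 0.19, with 174 such genes. Libraries 1 and 3 were farthest apart, with a median of 0.36 and 696 such genes. The remaining 3 pairs had medians between 0.27 and 0.34. Even between libraries 1 and 2 the chi-square statistic averaged 11.1 per gene with 1 degree of freedom, so they differed by more than counting noise. Repeat preparations of 1 sample can also exceed counting noise, and the libraries were counted as separate samples because the labels number them so. Across genes, Spearman's correlation of levels ran between 0.941 for libraries 1 and 3 and 0.997 for libraries 1 and 2, as a description over 8646 genes that are not independent.

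**Figure D1:**
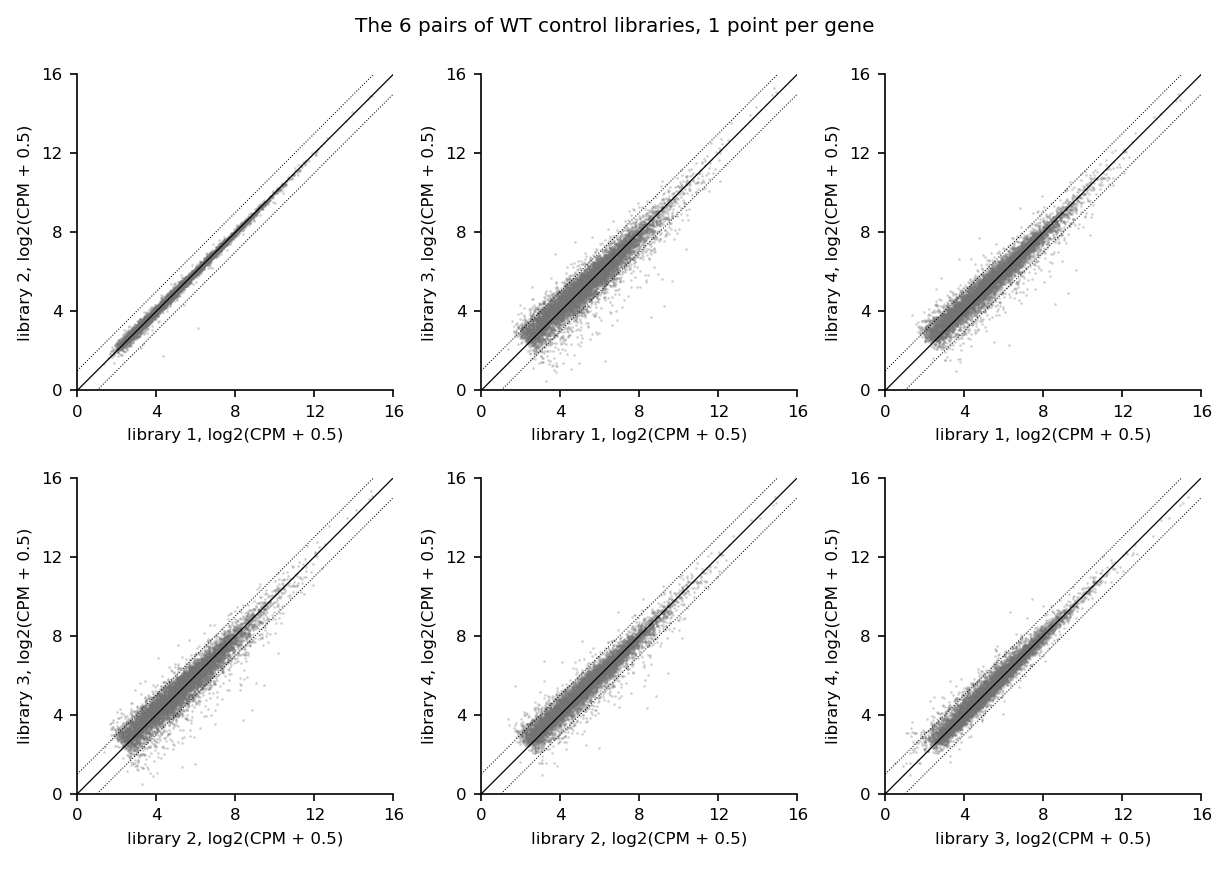
Each panel plots 1 pair of WT control libraries, with log2(CPM + 0.5) on both axes and 1 point for each of the 8646 genes with a mean of at least 5 CPM. The solid line marks equal levels and the dotted lines a 2-fold difference; the points of libraries 1 and 2 hug the line, with 4 genes past 2-fold, while 696 genes lie past it between libraries 1 and 3.

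Of 23159 symbols, 9945 stood at or above 1 CPM in all 4 libraries (42.9%), and 7079 had no count in any. Single libraries reached 1 CPM at 10213 to 10502 genes. The counts were unevenly shared: 107 genes with a mean of at least 1000 CPM held 32.9% ± 1.5 of all counts, the 1794 genes between 100 and 1000 CPM held 43.7% ± 1.63, and the 5616 genes between 10 and 100 CPM held 22% ± 0.753 (SD, n = 4). The 10 leading genes of each library took 15.3% ± 1.85 of its counts, at 14.1%, 14.7%, 18.1% and 14.5% in libraries 1 to 4. Library 3 was the highest of these, and in it 364 genes held 50% of the counts, against 403, 403 and 447 genes in libraries 1, 2 and 4.

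The genes with most counts were those of iron storage, lysozyme, a secreted chitinase-like protein and lysosomal proteolysis. The same 5 genes led every library, and 21 genes were among the 30 leading genes of all 4 libraries, of 39 that were among them in any. Ftl1, the light chain of ferritin, had 28989, 30171, 41063 and 32972 CPM in libraries 1 to 4. Fth1, the ferritin heavy chain that oxidises the stored iron, had 27169, 27694, 31194 and 25612 CPM. Lyz2, the lysozyme of myeloid cells that cuts bacterial cell walls, had 30853, 30609, 34900 and 26826 CPM and held first place in libraries 1 and 2, while Ftl1 held it in libraries 3 and 4. Chi3l3, a chitinase-like protein without enzyme activity that mouse macrophages secrete, had 15250, 17524, 21081 and 16212 CPM. Ctsd, the lysosomal protease cathepsin D, had 12249, 12893, 15892 and 14900 CPM. Library 3 was the highest of the 4 for each of these 5 genes.

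On the length-corrected scale the order at the top was nearly the same. Ftl1 reached 73885 ± 8948 TPM, Lyz2 50375 ± 3980 TPM, Fth1 40232 ± 2004 TPM and Chi3l3 24461 ± 2575 TPM (SD, n = 4) and each of these lay above the next by more than their spread. Tmsb4x, a small protein that binds free actin, came next at 14176 ± 2700 TPM and Ctsd after it at 14146 ± 1318 TPM, which did not differ beyond their spread. Of the 30 leading genes by CPM, 21 were also among the 30 leading genes by TPM. Genes with short transcripts moved up, among them Clec7a, the beta-glucan receptor dectin-1, which stood 25th by CPM and 8th by TPM at 8137 ± 1121 TPM. Lpl, the lipase that splits triglycerides of lipoproteins, moved down and stood 24th, at 3189 ± 61.3 TPM.

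Several of these leading genes have near copies, and the counts cannot say how reads were shared. Reads were 50 bases long, and of the stretches of 50 bases in Ftl1 transcripts 58.4% occur also in at least 1 of 17 other gene models, and 47.3% occur in Ftl1-ps1, the one with most. For Chi3l3 the share was 26.9% over 2 other models, with 16.9% in Chil4, and for Lyz2 it was 15.4%, with Lyz1. For Ctsd it was 32.4%, with Gm49369, a model that overlaps it. For Fth1 it was 1.59%. Levels of Ftl1, Chi3l3, Lyz2 and Ctsd are uncertain to that extent.

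Some of the other leading genes varied little. Psap, the precursor of the saposins that help lysosomal enzymes to reach lipids, had 4342, 4429, 4166 and 4318 CPM in libraries 1 to 4, with a coefficient of variation of 2.54%. Itgb2, the beta-2 integrin chain of leukocytes, had 3079, 3021, 2883 and 2976 CPM, with a coefficient of variation of 2.77%. Lpl had 5793, 5950, 6492 and 6126 CPM, with a coefficient of variation of 4.93%. These 3 genes sat within a narrow band in every library on raw totals. TMM factors shift library 1 by 0.065 and library 4 by -0.099 on the log2 scale, so this evenness depends on scaling.

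Others of the 30 were less even. Prdx1, a peroxiredoxin that removes hydrogen peroxide, had 6428, 6928, 11884 and 8492 CPM, and library 3 stood highest. Sqstm1, an autophagy receptor also known as p62, had 5171, 5388, 2732 and 3659 CPM, higher in libraries 1 and 2 than in libraries 3 and 4. Plek, a substrate of protein kinase C in blood cells, had 4277, 3858, 1548 and 2034 CPM, the widest range of the 30 at 2.76-fold. Actb, the beta-actin often taken as a reference transcript, had 2840, 2898, 2050 and 4221 CPM, so its highest library was 2.06-fold above its lowest.

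**Figure D2:**
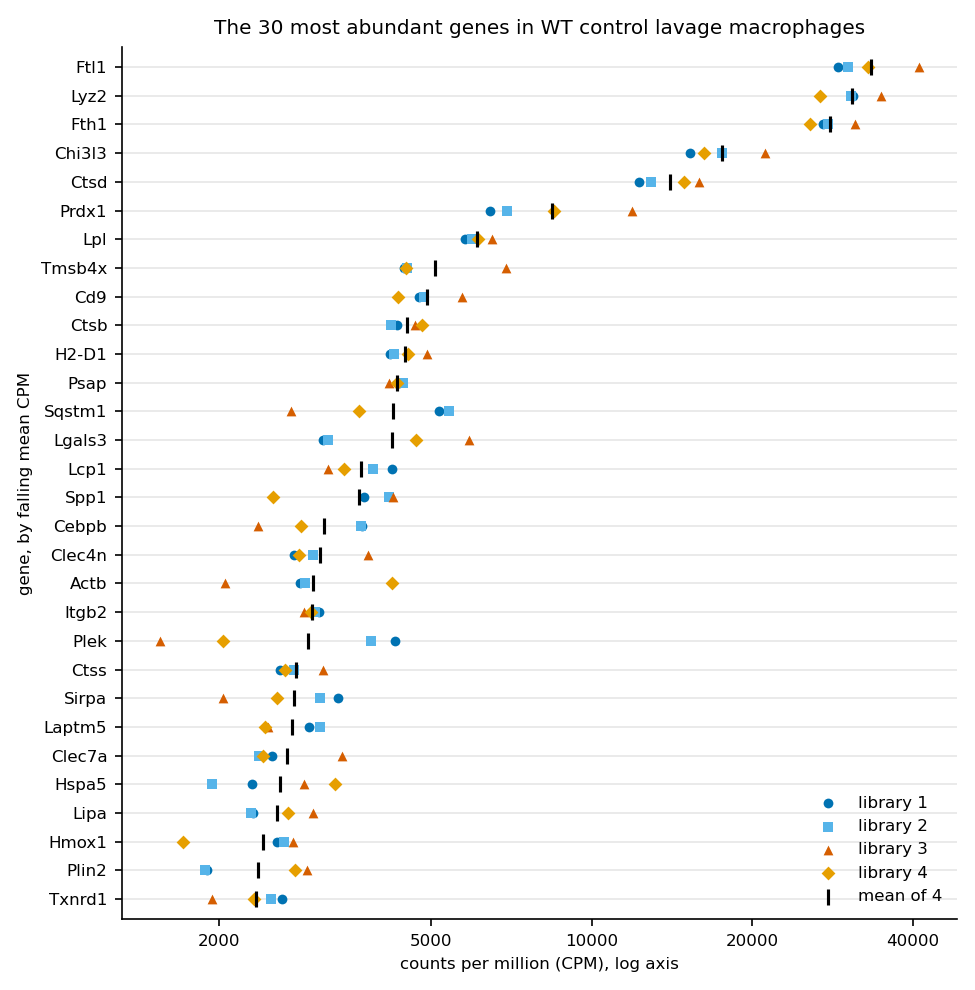
The 30 genes with the highest mean CPM run down the page, with CPM on a log axis, a symbol for each of the 4 libraries and a bar for their mean. Ftl1, Lyz2 and Fth1 lie between 25612 and 41063 CPM in every library, and Plek shows the widest range, between 1548 and 4277 CPM.

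Genes that define alveolar macrophages were present in all 4 libraries. Of 34 measured genes of a list of alveolar macrophage identity, 32 stood at or above 1 CPM in every library, and their summed level was 42833, 45805, 51366 and 42301 CPM in libraries 1 to 4, or 4.56% of the counts. Chi3l3 alone gave 38.4% of the sum. Among the 32 members with a mean of at least 5 CPM, 3 ranged at least 2-fold between the highest and the lowest library, against 12.8% of the 8646 genes of that level. That 12.8% is the share to set beside each later count of list members that ranged at least 2-fold. The share to set beside each count of members at or above 1 CPM in every library is 42.9% of the 23159 symbols. The median member ranged 1.58-fold, and the median of those 8646 genes ranged 1.41-fold.

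Single identity genes had the following levels. Cd9, a tetraspanin of the cell surface, had 4730, 4848, 5713 and 4326 CPM in libraries 1 to 4. Spp1, the secreted protein osteopontin, had 3732, 4157, 4244 and 2527 CPM, lowest in library 4. Itgax, the integrin CD11c by which alveolar macrophages are sorted, had 732, 714, 578 and 600 CPM. Mrc1, the mannose receptor, had 573, 651, 407 and 495 CPM. Krt79, a keratin found in mouse alveolar macrophages, had 251, 253, 614 and 420 CPM and ranged most among members with a mean of at least 5 CPM, while Slc7a2, a carrier of arginine and lysine, had 557, 475, 248 and 356 CPM. These last 2 ran in opposite orders.

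Markers shared by macrophages of all tissues were present as well. Of 18 such genes, 17 stood at or above 1 CPM in every library. The 17 with a mean of at least 5 CPM were less even than most genes, with 4 that ranged at least 2-fold and a median range of 1.80-fold against 1.41-fold. Lgals3, the sugar-binding protein galectin-3, had 3137, 3202, 5882 and 4669 CPM in libraries 1 to 4, and Laptm5, a lysosomal membrane protein of blood cells, had 2946, 3091, 2470 and 2438 CPM. Csf1r, the receptor of M-CSF, had 724, 661, 403 and 515 CPM. Mpeg1, a pore-forming protein of macrophages, had 241, 290, 171 and 915 CPM, so that library 4 stood more than 3-fold above each of the others.

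Genes of other tissue macrophages were low in all 4 libraries. Of a list of 16 such genes, 3 reached 1 CPM in every library, and the summed level of the list was 16.8, 11.9, 7.29 and 10.9 CPM in libraries 1 to 4. P2ry12, an ADP receptor of microglia, had most counts in it, with 4.86, 4.71, 2.88 and 3.01 CPM. Timd4, a receptor for dying cells in resident macrophages of other tissues, had 7.01, 3.72, 1.55 and 1.01 CPM. Gata6 of peritoneal macrophages reached at most 0.172 CPM and Sall1 of microglia had no count in any library.

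Of the transcription factors of the macrophage programme, Cebpb held most counts. This factor, which also acts in the inflammatory response, had 3702, 3683, 2361 and 2850 CPM in libraries 1 to 4. Bhlhe40, which controls the division of alveolar macrophages in mice, had 1394, 1274, 400 and 483 CPM. Pparg, the PPAR-gamma gene, had 155, 151, 143 and 137 CPM, a range of less than 1.5-fold. Of 21 members with a mean of at least 5 CPM, 7 ranged at least 2-fold, and in 17 both libraries 1 and 2 lay above both libraries 3 and 4, an order that 26.3% of all 8646 genes showed. The counts of this order depend on scaling: over all 8646 genes the share was 36.7% with TMM factors, while the opposite order, with libraries 3 and 4 above, held for 45.8% on raw totals and 34.8% with TMM factors. With TMM factors 18 of the 21 factors showed the first order.

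Both chains of the GM-CSF receptor varied little. Csf2ra, the binding chain of the GM-CSF receptor, had 923, 881, 927 and 870 CPM in libraries 1 to 4, and Csf2rb, its signalling chain, had 909, 922, 782 and 876 CPM. Csf2, which encodes GM-CSF itself, reached at most 0.0335 CPM, below the level that a count of 0 allows. Tgfbr2, a receptor of TGF-beta, had 471, 424, 327 and 459 CPM, and Tgfb1, a ligand, had 472, 433, 245 and 264 CPM. Of the 16 genes of this axis with a mean of at least 5 CPM, 1 ranged at least 2-fold, and the median range was 1.45-fold against 1.41-fold over all 8646 genes. The gene past 2-fold was Csf1, the ligand of Csf1r, with 30.8, 39.5, 2.07 and 11.7 CPM.

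Lipid-handling genes took 1.74% of the counts. The list of surfactant lipid handling summed to 15947, 16153, 19190 and 18278 CPM in libraries 1 to 4, of which Lpl made up 35%. Lipa, the acid lipase of lysosomes, had 2314, 2291, 2994 and 2690 CPM, and Plin2, the coat protein of lipid droplets, had 1894, 1883, 2924 and 2774 CPM. Cd36, a scavenger receptor for oxidised lipids, had 577, 602, 1576 and 1187 CPM, so libraries 3 and 4 stood above libraries 1 and 2. Abca1, a cholesterol exporter, showed the reverse, with 41.6, 51.5, 8.79 and 24.9 CPM. Pla2g7, a phospholipase that cleaves oxidised phospholipids, had 19.8, 26.6, 76.3 and 101 CPM. Of the 23 members with a mean of at least 5 CPM, 5 ranged at least 2-fold, against 12.8% of all genes of that level, and the median range was 1.36-fold.

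Enzymes and regulators of cholesterol synthesis were all counted, and 4 of 24 ranged at least 2-fold, a share near the 12.8% of all genes. Hmgcs1, which makes the precursor of mevalonate, had 746, 703, 784 and 716 CPM in libraries 1 to 4, and Cyp51, the sterol demethylase, had 644, 596, 660 and 578 CPM.

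Lysosomal genes ranged less than most. Its 35 genes summed to 46399, 47267, 52075 and 50616 CPM, which was 4.91% of the counts, and of 34 members with a mean of at least 5 CPM 1 ranged at least 2-fold. The median member ranged 1.26-fold, against 1.41-fold over all 8646 genes. Ctsb, cathepsin B, had 4318, 4192, 4657 and 4807 CPM in libraries 1 to 4, and Ctss, cathepsin S, had 2596, 2765, 3137 and 2658 CPM. The member past 2-fold was Acp5, the tartrate-resistant acid phosphatase, with 673, 582, 262 and 354 CPM. Gla, the lysosomal alpha-galactosidase, had 97.6, 89.1, 152 and 79.6 CPM.

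Antioxidant genes took 8.19% of the counts, most of it ferritin. The list summed to 74522, 76813, 96874 and 79411 CPM, and Ftl1 gave 40.7% of it. Hmox1, the heme oxygenase that frees iron from heme, had 2571, 2647, 2748 and 1713 CPM in libraries 1 to 4, lowest in library 4. Txnrd1, a thioredoxin reductase, had 2619, 2503, 1939 and 2327 CPM. Nfe2l2, the transcription factor NRF2 that drives many of these genes, had 648, 623, 236 and 314 CPM. Nqo1, a quinone reductase and a target of NRF2, ran the other way, with 19.5, 19.6, 49.9 and 39.6 CPM. Of the 23 members 3 ranged at least 2-fold, a share near the 12.8% of all genes. In 14 both libraries 3 and 4 lay above both libraries 1 and 2, against 45.8% of all genes, and with TMM factors this held for 11, against 34.8%.

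Iron genes outside ferritin had fewer counts. Fbxl5, the sensor that marks iron regulatory proteins for degradation, had 206, 220, 573 and 529 CPM in libraries 1 to 4. Slc11a1, an iron and manganese carrier of the phagosome membrane, had 40.9, 47.5, 64.1 and 125 CPM, highest in library 4. Of the 11 members of the iron list with a mean of at least 5 CPM, 3 ranged at least 2-fold.

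Genes of oxidative phosphorylation ranged less than most, and glycolytic genes about as much as others. None of 27 nuclear genes of oxidative phosphorylation ranged 2-fold, and their median range was 1.24-fold, against 1.41-fold over all 8646 genes. Atp5b, the catalytic beta subunit of ATP synthase, had 1057, 1022, 1061 and 1032 CPM in libraries 1 to 4, and Sdha, the flavoprotein of succinate dehydrogenase, had 320, 322, 265 and 302 CPM. Ndufv2, a subunit of complex I, ranged most in the list, with 50.1, 52.9, 86.6 and 63.4 CPM. Of 18 glycolytic genes 1 ranged at least 2-fold, and the median range was 1.34-fold. With TMM factors 3 ranged at least 2-fold, and the median was 1.39-fold against 1.38-fold over all 8646 genes. Gapdh had 1137, 1133, 1096 and 1171 CPM, Aldoa, the muscle-type aldolase, had 1647, 1716, 1885 and 1739 CPM, and Ldha, the lactate dehydrogenase A chain, had 1187, 1169, 1557 and 1336 CPM. Pfkp, a phosphofructokinase, had 411, 411, 206 and 227 CPM. Hk3, a hexokinase of myeloid cells, was the member past 2-fold on raw totals, with 37.0, 34.2, 57.7 and 70.1 CPM.

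Cell-cycle genes were counted in all libraries. All 26 cell-cycle genes stood at or above 1 CPM in every library, and their sum was 1063, 1173, 1022 and 843 CPM. Pcna, the sliding clamp of DNA replication, had 153, 162, 182 and 143 CPM in libraries 1 to 4. Top2a, a topoisomerase of dividing cells, had 76.6, 88.6, 44.9 and 46.3 CPM, and Mcm4, a part of the replicative helicase, had 52.2, 56.1, 27.0 and 34.6 CPM. Mcm4 was the 1 member that ranged at least 2-fold, and the median range was 1.49-fold. In 12 of the 26 both libraries 1 and 2 lay above both libraries 3 and 4, against 26.3% of all genes, and with TMM factors in 13, against 36.7%; the opposite order was seen in none under either scaling.

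Phagocytic receptors were among the most counted surface molecules. Clec4n, the fungal receptor dectin-2, had 2760, 2992, 3796 and 2824 CPM in libraries 1 to 4, and Clec7a had 2514, 2378, 3406 and 2421 CPM. Axl, a receptor that clears dying cells, had 2437, 2237, 1499 and 1784 CPM. Of the 22 members with a mean of at least 5 CPM, 5 ranged at least 2-fold, against 12.8% of all genes, and the median range was 1.64-fold, while the sum over the list stayed between 16263 and 17643 CPM. Sirpa, an inhibitory receptor that reads the don't-eat-me signal CD47, had 3342, 3084, 2035 and 2569 CPM.

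Of the listed Toll-like receptors, their adaptors and the cytosolic sensors, Tlr2 held most counts. Tlr2, which senses bacterial lipoproteins, had 2930, 2857, 1106 and 1366 CPM in libraries 1 to 4 and gave 57.0% of the summed level of Toll-like receptors and their adaptors. Libraries 1 and 2 were both above libraries 3 and 4. Cd14, a co-receptor for lipopolysaccharide, had 532, 583, 377 and 379 CPM. Tlr13, which senses bacterial ribosomal RNA, had 146, 158, 173 and 209 CPM, and Tlr8, a receptor of endosomes, had 21.8, 21.6, 41.8 and 43.4 CPM. Among cytosolic sensors Casp1, the inflammasome protease, had 82.7, 90.4, 98.3 and 105 CPM. Nlrp3, a sensor that starts an inflammasome, had 141, 127, 18.4 and 28.3 CPM, with no overlap in level between libraries 1 and 2 and libraries 3 and 4.

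Chemokine, cytokine and immediate early genes were among those that ranged most. Of the 8646 genes with a mean of at least 5 CPM, 1104 ranged at least 2-fold (12.8%), 103 ranged at least 4-fold and 11 ranged at least 10-fold. The count was 562 without library 3, 824 without library 4 and 6 between libraries 1 and 2 alone. The 15 genes with the largest SD of log2(CPM + 0.5) among those with a mean of at least 20 CPM included 4 chemokines, the cytokine genes Csf1, Osm and Gdf15, and the immediate early factors Egr1 and Nr4a1. In 12 of the 15, libraries 1 and 2 were both above libraries 3 and 4. Of the 8646 genes 26.3% showed this order on raw totals and 36.7% with TMM factors. Of 290 genes with at least a 2-fold gap between neighbouring libraries, libraries 1 and 2 lay above it for 106 and libraries 3 and 4 for 95. The 15 were picked by spread and libraries 1 and 2 were close to each other, so the shares of all genes are no even base for the 15.

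The chemokines among them had these values. Cxcl3, a neutrophil attractant, had 619, 462, 18.8 and 30.4 CPM in libraries 1 to 4, a range of 33.0-fold. Cxcl2, a second neutrophil attractant beside it on chromosome 5, had 813, 701, 45.4 and 68.2 CPM. Ccl3, which draws monocytes and T cells, had 386, 338, 12.8 and 20.2 CPM. Ccl4, its neighbour on chromosome 11, had 76.6, 61.4, 2.34 and 4.47 CPM. In all 4 genes library 3 was lowest, library 4 next, and the lower of libraries 1 and 2 lay at least 10-fold above library 4. The share of 50-base stretches found also in another gene was 4.29% for Cxcl3 and 5.84% for Cxcl2, and no such stretch was found for Ccl3 and Ccl4.

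Ligands of growth factor and cytokine receptors showed the same order. Gdf15, a stress cytokine of the TGF-beta family, had 1313, 1131, 141 and 232 CPM in libraries 1 to 4. Osm, the cytokine oncostatin M, had 320, 308, 44.7 and 54.4 CPM, and Csf1 is given above. Tnf, the tumour necrosis factor, had 489, 384, 59.9 and 93.9 CPM, and Il1a, the interleukin-1 alpha gene, had 426, 351, 76.6 and 129 CPM. Il1rn, the antagonist of the interleukin-1 receptor, ranged far less, with 1007, 986, 825 and 842 CPM.

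Transcription factors and other genes filled the rest of the 15. Egr1, a zinc finger factor induced within minutes of a stimulus, had 115, 126, 11.1 and 20.9 CPM in libraries 1 to 4. Nr4a1, a nuclear receptor of the immediate early response, had 259, 304, 37.5 and 43.6 CPM. Hivep3, a large zinc finger protein, had 561, 526, 49.1 and 176 CPM. Csrnp1, a nuclear protein, had 45.6, 39.5, 5.51 and 5.02 CPM, and Slc2a6, a sugar transporter of the glucose transporter family, had 62.2, 60.3, 6.89 and 16.7 CPM.

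The other 3 of the 15 had another order. Txnip, which binds thioredoxin and limits glucose uptake, had 26.4, 33.6, 183 and 211 CPM, higher in libraries 3 and 4. F630028O10Rik, which GENCODE annotates as an antisense RNA on chromosome X, had 13, 16.7, 118 and 100 CPM, in the same order. Beta-s, an adult beta-globin gene of red cells, had 67.9, 8.43, 49 and 106 CPM, and library 2 was low.

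**Figure D3:**
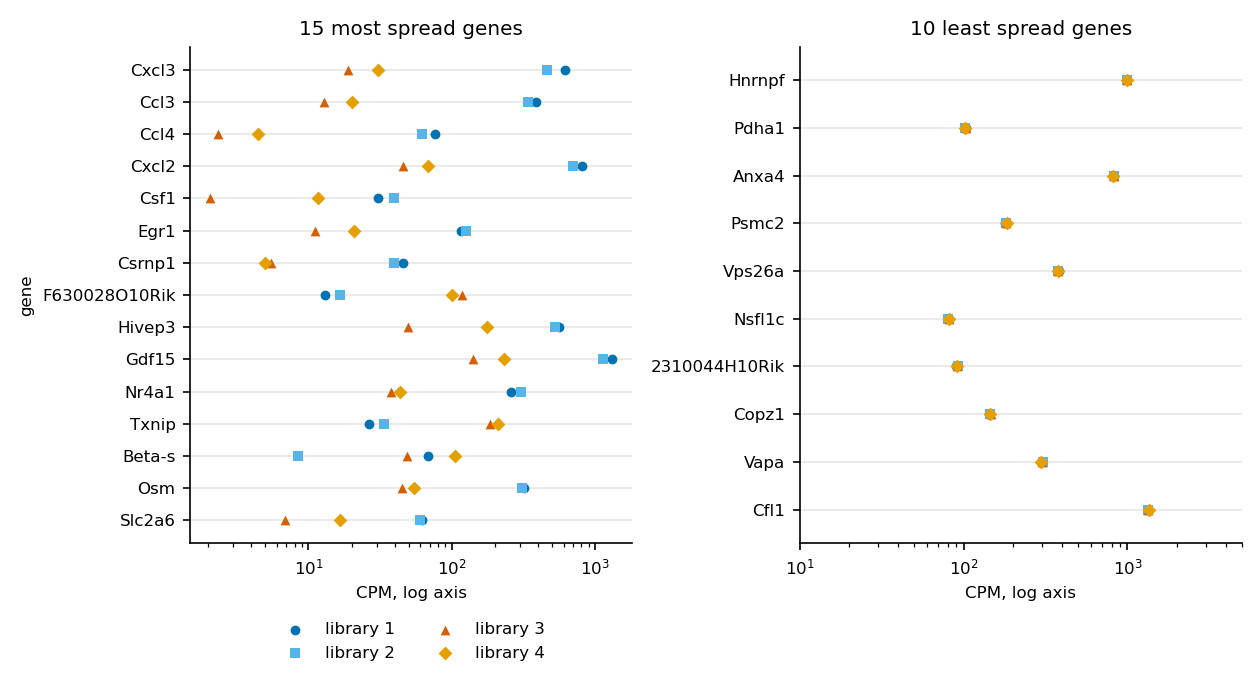
The 15 most spread genes (left) and the 10 least spread genes (right) with a mean of at least 20 CPM are plotted with CPM on a log axis and a symbol for each library. On the left, libraries 1 and 2 lie far above libraries 3 and 4 for 12 genes, below them for Txnip and F630028O10Rik, and apart from each other for Beta-s; on the right the 4 symbols coincide.

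Promoter sequences are shown for the 4 of the 5 most spread genes that have a RefSeq promoter entry, because these genes moved together, and for 1 of the 10 least spread genes. Each line gives the 200 bases before the transcription start on the gene's own strand, from RefSeq on GRCm38.p6, and capitals mark matches to the 10-base NF-kB consensus on either strand or to TATAAA. The regions are chr5:90785901-90786100 for Cxcl3 (plus strand), chr5:90903699-90903898 for Cxcl2 (plus strand), chr3:107760470-107760669 for Csf1 (minus strand), chr11:83649379-83649578 for Ccl3 (minus strand) and chrX:160138431-160138630 for Pdha1 (minus strand), a subunit of pyruvate dehydrogenase.
Cxcl3: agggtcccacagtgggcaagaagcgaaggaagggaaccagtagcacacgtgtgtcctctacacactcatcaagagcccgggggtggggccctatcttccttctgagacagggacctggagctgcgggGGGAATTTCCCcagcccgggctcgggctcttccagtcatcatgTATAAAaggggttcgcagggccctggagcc
Cxcl2: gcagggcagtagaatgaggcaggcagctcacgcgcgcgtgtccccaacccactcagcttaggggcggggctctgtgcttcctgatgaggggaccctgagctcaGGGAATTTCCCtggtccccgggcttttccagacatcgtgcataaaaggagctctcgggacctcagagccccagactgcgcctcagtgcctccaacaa
Csf1: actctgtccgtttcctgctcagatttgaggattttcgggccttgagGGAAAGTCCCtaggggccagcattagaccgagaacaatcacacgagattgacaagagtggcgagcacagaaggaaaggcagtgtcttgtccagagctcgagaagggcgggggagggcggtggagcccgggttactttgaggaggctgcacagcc
Ccl3: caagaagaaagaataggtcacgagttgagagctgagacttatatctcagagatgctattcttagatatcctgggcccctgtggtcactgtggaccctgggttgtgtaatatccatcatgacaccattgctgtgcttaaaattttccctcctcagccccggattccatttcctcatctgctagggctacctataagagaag
Pdha1: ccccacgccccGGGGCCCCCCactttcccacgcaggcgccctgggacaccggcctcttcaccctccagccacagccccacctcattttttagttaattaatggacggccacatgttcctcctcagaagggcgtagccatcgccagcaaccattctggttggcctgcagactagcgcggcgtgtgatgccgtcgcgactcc

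NF-kB is the transcription factor family that carries many inflammatory signals to the nucleus, and TATAAA is the box that places the start of transcription in many inducible genes. In Cxcl3 the consensus matched on both strands between 73 and 63 bases before the start, and TATAAA lay between 30 and 25 bases before it. In Cxcl2 the same 11 letters lay between 97 and 87 bases before the start. In Csf1 a match lay between 154 and 145 bases before the start, and the Ccl3 window held none. In Pdha1, whose level was 104, 103, 104 and 103 CPM, a match lay between 189 and 180 bases before the start. In the full RefSeq promoters, from 250 bases before to 50 bases after the start and on both strands, the consensus matched in 4 of the 12 most spread genes with an entry, in 3 of the 10 least spread genes, in 12% of 7966 genes detected in every library and in 8.46% of all 32851 promoters. These are matches of letters and not sites of binding.

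The lists of inflammatory genes behaved as the single genes did, and the counts below describe these libraries. Of 11 chemokines with a mean of at least 5 CPM, 8 ranged at least 2-fold and the median range was 7.85-fold, against 1.41-fold over the 8646 genes. In 10 of the 11, libraries 1 and 2 were both above libraries 3 and 4, and 10 were so with TMM factors. Over the 8646 genes this order held for 26.3% on raw totals and 36.7% with TMM factors. Ccl6, a CC chemokine of mouse myeloid cells, held 61.4% of the chemokine sum and ranged 1.43-fold, with 2106, 2478, 2038 and 1730 CPM. Ccl17, which draws T cells, had 11.4, 8.06, 1.85 and 1.45 CPM.

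Cytokines, NF-kB genes and immediate early genes followed. Of 11 cytokine and growth factor genes with a mean of at least 5 CPM, 7 ranged at least 2-fold. Of 17 NF-kB subunits and targets, 12 ranged at least 2-fold, with a median of 2.36-fold. All 17 were higher in libraries 1 and 2 than in libraries 3 and 4, also with TMM factors. The shares of all genes in this order were 26.3% on raw totals and 36.7% with TMM factors. Icam1, an adhesion molecule induced by NF-kB, had 856, 807, 203 and 303 CPM in libraries 1 to 4. Nfkbia, the inhibitor that NF-kB itself induces, had 478, 473, 349 and 426 CPM, and Nfkbiz, an inducible nuclear partner, had 48.9, 38.6, 6.65 and 13.6 CPM. The members thus differed in how far they ranged.

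Among 19 immediate early genes, 11 ranged at least 2-fold. In 15 both libraries 1 and 2 were above both libraries 3 and 4, on raw totals and with TMM factors. Of all genes 26.3% and 36.7% showed this order under the 2 scalings. Atf3, a stress-induced repressor, had 768, 735, 353 and 326 CPM in libraries 1 to 4, Junb, an AP-1 subunit, had 641, 644, 275 and 334 CPM, and Zfp36, which speeds the decay of cytokine mRNAs, had 424, 433, 181 and 200 CPM. Klf6, a zinc finger factor of the same list, had 232, 243, 253 and 282 CPM and did not follow them. Fos, an AP-1 subunit singled out after its values were seen, ran the other way, with 86.5, 86.0, 130 and 137 CPM.

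Many stress genes of the endoplasmic reticulum ran against this order, but not all. Of 16 genes of the unfolded protein response with a mean of at least 5 CPM, 12 were higher in both libraries 3 and 4 than in both libraries 1 and 2, against 45.8% of the 8646 genes on raw totals, and 9 with TMM factors against 34.8%. Hspa5, the chaperone BiP, had 2309, 1937, 2882 and 3292 CPM in libraries 1 to 4. Dnajb9, a co-chaperone of BiP, had 53.6, 52.9, 129 and 133 CPM, and Manf, a secreted stress protein, had 103, 93.2, 213 and 211 CPM. In 3 of the 16 both libraries 1 and 2 lay above both libraries 3 and 4, under either scaling. Calr was 1 of these, with 1477, 1397, 1376 and 1254 CPM. Of the 16, 4 ranged at least 2-fold.

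Cytosolic chaperones did not share 1 order. Hsp90ab1, the constitutive HSP90, had 1599, 1768, 959 and 987 CPM in libraries 1 to 4, while Hspa8, the constitutive HSC70, had 642, 587, 1402 and 1483 CPM. Hspa1a, the heat-inducible HSP70, had 32.6, 29.3, 4.97 and 29.7 CPM, and Hspa1b, its near copy, had 31.0, 27.8, 4.28 and 25.1 CPM. Library 3 alone was low for both, and 66.3% of the 50-base stretches of Hspa1a occur also in another gene, so the pair cannot be read as separate evidence.

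Genes of antigen presentation ranged more in MHC class II than in class I. Of 6 MHC class II genes with a mean of at least 5 CPM, all 6 were higher in libraries 1 and 2 than in libraries 3 and 4. Over all genes that order held for 26.3% on raw totals and 36.7% with TMM factors. Of the 6 class II genes 4 ranged at least 2-fold, with a median of 2.89-fold. Cd74, the invariant chain, had 1359, 1016, 463 and 442 CPM in libraries 1 to 4, and H2-Ab1 and H2-Aa, the chains of the I-A molecule, had 341, 244, 144 and 118 CPM and 188, 137, 84.3 and 61.9 CPM. Of 12 MHC class I genes of that level 1 ranged at least 2-fold, with a median of 1.33-fold, and 8 were higher in libraries 1 and 2, or 10 with TMM factors. The summed level of 13 class I genes lay between 7931 and 8278 CPM, and H2-D1, a heavy chain that gave 54.8% of it, ran the other way with 4184, 4260, 4911 and 4510 CPM. B2m, the light chain, had 1477, 1466, 1221 and 1123 CPM.

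Interferon-stimulated genes held few counts in all libraries. Of 26 such genes, 14 stood at or above 1 CPM in every library, against 42.9% of all symbols. The sum was 321, 324, 232 and 314 CPM. Oasl1, a protein of the antiviral response, had 13.4, 9, 2.07 and 4.33 CPM in libraries 1 to 4, and Rsad2, the antiviral enzyme viperin, had 7.68, 7.58, 2.24 and 7.84 CPM. Library 3 was lowest in each.

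Complement genes ranged widely, with a median of 2.16-fold over the 8 with a mean of at least 5 CPM. Cfb, factor B of the alternative pathway, had 964, 754, 251 and 716 CPM in libraries 1 to 4, and C3, the central complement protein, had 355, 313, 98.7 and 270 CPM, so library 3 was lowest for both. C5ar1, the receptor of the fragment C5a, had 600, 671, 187 and 238 CPM. Of 13 genes used as marks of alternative activation 7 stood at or above 1 CPM in every library, against 42.9% of all symbols. Chi3l3 gave 88.1% of the summed level, and Tgm2, a transglutaminase, had 1870, 1642, 1048 and 1354 CPM. Arg1 and Retnla, classical marks of the response to interleukin-4 that were singled out after their values were seen, reached at most 1.29 CPM and 0.123 CPM.

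Proteases and regulators of cell death followed more than 1 order. Mmp12, the macrophage elastase, had 39.0, 44.3, 111 and 53.3 CPM in libraries 1 to 4, and library 3 stood alone. Mmp14, a membrane-bound metalloproteinase, had 16.8, 11.0, 2.09 and 8.25 CPM, and Adam17, the sheddase that frees TNF from the membrane, had 612, 573, 382 and 449 CPM. Mcl1, which holds off apoptosis, had 591, 602, 515 and 597 CPM, and Bcl2l1, the gene of BCL-XL, had 183, 162, 74.8 and 105 CPM.

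**Figure D4:**
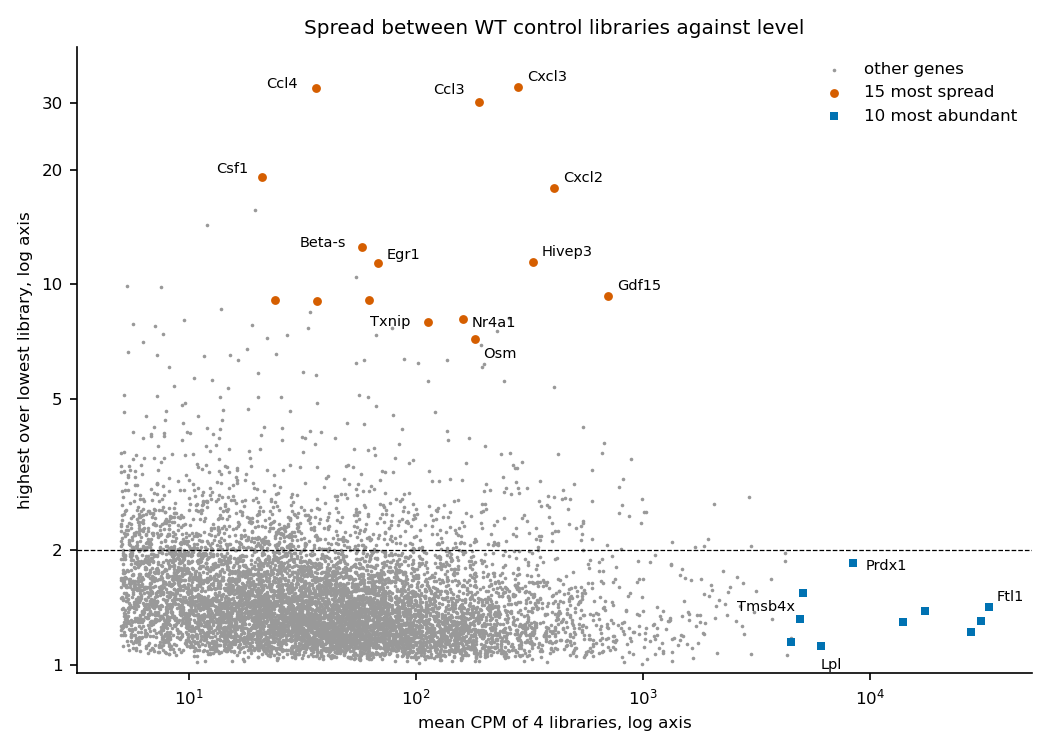
Each of the 8646 genes with a mean of at least 5 CPM is plotted by its mean CPM and by the ratio of its highest to its lowest library, both on log axes, with the 15 most spread genes in orange and the 10 most abundant in blue; the dashed line marks 2-fold. The most abundant genes lie under 2-fold, and Cxcl3, Ccl4 and Ccl3 lie at or above 30-fold.

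The steadiest genes were nearly equal in the 4 libraries. Hnrnpf, an RNA-binding protein, had 991, 987, 994 and 988 CPM in libraries 1 to 4, the smallest SD of log2(CPM + 0.5) among genes with a mean of at least 20 CPM. Anxa4, an annexin that binds membranes, had 827, 825, 833 and 818 CPM, and Cfl1, the actin-severing protein cofilin, had 1327, 1327, 1338 and 1359 CPM. Vps26a, a part of the retromer, had 383, 376, 376 and 376 CPM, and Psmc2, an ATPase of the proteasome, had 179, 182, 182 and 183 CPM. All 10 least spread genes ranged at most 1.03-fold on raw totals, the scale on which they were ranked.

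Measured against counting error, most genes varied. Of 11798 genes with a mean of at least 10 counts, 10439 varied between the 4 libraries by more than Poisson sampling would give (88.5%; chi-square test with 3 degrees of freedom, Benjamini-Hochberg adjusted p under 0.05). The common biological coefficient of variation, which is the spread left after counting error, was 0.246 by edgeR over 11078 genes. It was 0.0584 with libraries 1 and 2 alone and 0.193 with libraries 3 and 4 alone. Low genes ranged more: 35.3% of genes between 1 and 10 CPM ranged at least 2-fold, against 8.41% of those at or above 1000 CPM. Of 290 genes with at least a 2-fold gap between neighbouring libraries, libraries 1 and 2 lay above the gap for 106, libraries 3 and 4 for 95, libraries 1, 2 and 4 for 57 and library 4 alone for 19.

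Markers of other cell types were low, with the exceptions named here. The T cell list of 18 genes summed to 6.99, 4.48, 8.69 and 25.2 CPM in libraries 1 to 4, and the B cell list of 9 genes to 3.67, 0.548, 1.48 and 28.1 CPM, so library 4 was highest for both. Il7r, a receptor chain of T cells, had 3.15, 2.1, 4.6 and 10.7 CPM, and Cd79a, a part of the B cell receptor, had 1.14, 0.0914, 0.443 and 7.92 CPM. The monocyte list summed to 6.74, 2.06, 3.03 and 15.0 CPM, with Ly6c2 at most 0.795 CPM. The neutrophil list of 14 genes summed to 89.0, 94.6, 50.1 and 90.3 CPM. Its leading genes were Csf3r, the G-CSF receptor, with 38.9, 42.2, 17.5 and 36.1 CPM, and Mmp8, a collagenase, with 22, 28, 17.2 and 16.7 CPM. Elane of neutrophil granules had no count in any library, and Mpo, Camp and Ngp reached at most 0.11 CPM. In RNA from a mixed sample, fewer cells of a type and less RNA per cell cannot be told apart.

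Epithelial and red cell transcripts were present at a low level. The type II cell list summed to 114, 114, 89.9 and 104 CPM, with most counts from Abca3, a lipid carrier, at 54.1, 52.5, 33.2 and 51.4 CPM. Sftpc, the surfactant protein that defines type II cells, had 9, 7.04, 5.07 and 5.95 CPM. The airway list summed to 234, 229, 124 and 157 CPM, with Cdh1, the E-cadherin gene, at 69.5, 63.4, 40.2 and 55.6 CPM and Epcam, an epithelial adhesion molecule, at 54.8, 57.0, 25.7 and 21.4 CPM, while Krt5 and Muc5b reached at most 0.0228 CPM. The endothelial list summed to 42.6, 46.8, 48.9 and 84.8 CPM, of which Vwf, the von Willebrand factor gene, gave 98.8%, while Cldn5, Tek and Emcn had no count. Red cell markers summed to 88.5, 11.4, 60.8 and 151 CPM, nearly all from Beta-s and Alas2. Of the 16 marker lists, the airway and type II lists were the 2 whose sums were higher in both libraries 1 and 2 than in both libraries 3 and 4. The part of these transcripts in the spread of other genes was not tested.

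Genes of the Y chromosome were counted in every library, and Xist was not above the level that a count of 0 allows. Ddx3y had 85.6, 88.2, 59.6 and 89.7 CPM in libraries 1 to 4 and Eif2s3y had 69.5, 67.6, 71.1 and 86.0 CPM. Xist reached at most 0.0503 CPM. The series title speaks of male mice.

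**Figure D5:**
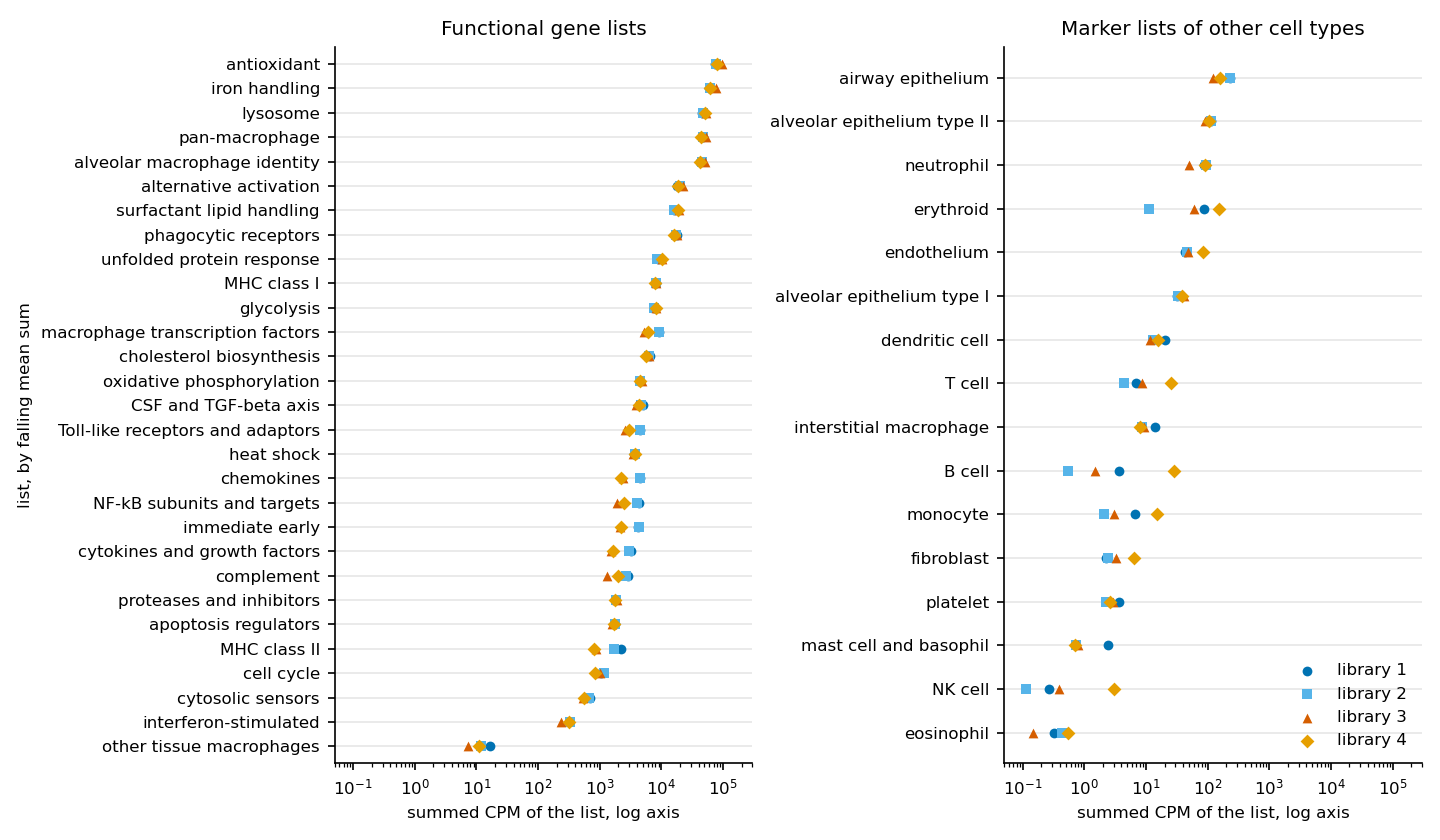
Summed CPM of each functional gene list (left) and of each marker list of other cell types (right) is plotted on a log axis with a symbol for each library. The alveolar macrophage identity, pan-macrophage, lysosome, antioxidant and iron handling lists lie at or above 42301 CPM in every library. Marker lists of other cells reach at most 234 CPM, and lists may share genes.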

How the data were processed

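Macrophage RNA from 4 WT control libraries was analysed. Per the labels' protocols, RNA was extracted with an RNeasy kit and TruSeq mRNA libraries were read from both ends over 50 bases. The submitters' processing notes name FastQC 0.11.3, TopHat2 2.0.13, Bowtie2 2.2.1, Cufflinks, Cuffdiff 2.1.1 and mm10. The deposited table holds whole-number counts per gene symbol, which its name ascribes to HTSeq; its version, strand setting and annotation are not given in the sources used here, and counts of overlapping and antisense genes are uncertain for that reason. All 16 sample columns matched a label.

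CPM used raw library totals over the 23159 symbols. Positions and transcript lengths came from GENCODE M21 (mm10) for 22691 symbols, 1913 of them through an older symbol. TPM used the longest principal transcript. Spread was described by the ratio of highest to lowest library, the SD of log2(CPM + 0.5), the common dispersion of an edgeR 4.0.16 fit (TMM, filterByExpr with a minimum count of 10, intercept alone) and a chi-square test against Poisson error with Benjamini-Hochberg adjustment. The dispersion and the chi-square were tested on simulated data. Alternatives were other scalings, filters, pseudocounts, DESeq2 1.42.0, leaving out each library and, chosen after seeing the data, libraries 1 and 2 only and libraries 3 and 4 only. Software was R 4.3.3 and python 3.11.15 with scipy 1.17.1, numpy 2.4.6, matplotlib 3.10.9 and pandas 2.3.3.

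The members and lists were chosen with earlier results of these data known. Of 30 functional and 16 marker lists, 7 symbols had no row and were not analysed here. The rule for naming took the 30 genes of highest mean CPM, the 15 of largest and 10 of smallest log2 SD among genes with a mean of at least 20 CPM, the 4 highest members of each functional list with the 2 of widest range, and the 3 highest of each marker list. Of these 221 genes some are described. Genes named outside that rule were chosen after their values were seen, among them Pparg, Fos, Arg1, Retnla, Csf2, Gata6, Sall1, Ly6c2, Xist and the markers given as at or near 0.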

Additional observations from a re-analysis of the deposited data

Results flagged for a closer look

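Each value in the text and each list sum, 211 in all, was searched for 1 library that lay far from the other 3, by Dixon's 95% limit for the gap between that library and its nearest neighbour relative to the range, and 27 passed. Chance passes about 1 in 20 groups of 4, and over the 8646 genes with a mean of at least 5 CPM 5.61% passed, 284 through library 3, 180 through library 4, 14 through library 1 and 7 through library 2. Some of the 211 values were placed in the text after they were seen, among them Cotl1, Lyst, Lmo4, Camp, Krt5, Mpo and Muc5b. The count of 27 is therefore not to be compared with these shares. The values follow with no explanation.

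Library 3 stood above the others for Clec7a at 3406 CPM (others 2378 to 2514 CPM), Tmsb4x at 6888 CPM (others 4447 to 4510 CPM) and Lmo4 at 254 CPM (others 122 to 127 CPM). It stood above them also for the summed level of oxidative phosphorylation genes, at 4886 CPM against 4436 to 4495 CPM, and of iron genes, at 75942 CPM against 59385 to 61335 CPM. Library 3 stood below the others for Abca3 at 33.2 CPM, Ddx3y at 59.6 CPM, Hspa1a at 4.97 CPM, Mcl1 at 515 CPM and Rsad2 at 2.24 CPM. The summed interferon-stimulated genes of library 3, at 232 CPM, lay below 314 to 324 CPM in the others. Its neutrophil markers, at 50.1 CPM, lay below 89.0 to 94.6 CPM.

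Library 4 stood above the others for Mpeg1 at 915 CPM (others 171 to 290 CPM), Cotl1 at 600.2 CPM (others 79.6 to 119 CPM), Lyst at 79.6 CPM and Vwf at 83.5 CPM, and with Vwf for the endothelial list at 84.8 CPM. It stood above them for Cd79a at 7.92 CPM, the B cell list at 28.1 CPM and the NK cell list at 2.99 CPM. Library 4 stood below the others for Hmox1 at 1713 CPM (others 2571 to 2748 CPM).

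Library 1 stood above the others for Vps26a at 383 CPM, where the others had 376 CPM each, and for the mast cell and basophil list at 2.46 CPM. Some values rest on 1 to 4 counts in 1 library and none in the others, for Camp at 0.0246 CPM in library 3, Krt5 at 0.0168 CPM in library 1, Mpo at 0.11 CPM in library 4 and Muc5b at 0.0228 CPM in library 2.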

How the results depend on the processing

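The number of detected genes stayed within 1.5-fold under TMM and DESeq2 scaling and when any 1 library was left out, and the number of genes beyond counting error did so under TMM scaling, with which alone it was repeated, and when any 1 library was left out. The levels of the 46 lists and 221 named genes moved by less than 1 SD under TMM and DESeq2 scaling. Both scalings raise some of these libraries and lower others, so a mean over all 4 could hardly move. The small moves therefore do not show that single libraries are free of the scaling. The share of genes with libraries 1 and 2 above libraries 3 and 4 did change with scaling, as given above. The share of the 10 leading genes was 24.9% by TPM. The number of genes ranging at least 2-fold, 1104, was 1822 with a mean of at least 1 CPM, 583 with at least 20 CPM and 6965 with no filter on low values. Leaving out 1 library gave 562 to 1018 genes, and without library 3 it was 562. With libraries 1 and 2 only it was 6 and with libraries 3 and 4 only 208, so this count rests on which libraries are held. The biological coefficient of variation was 0.160 as the root of DESeq2's median dispersion and 0.0584 with libraries 1 and 2 only. The median SD of log2(CPM + 0.5), 0.22, was 0.049 with libraries 1 and 2 only and 0.14 with libraries 3 and 4 only. The median Spearman correlation of library pairs was 0.936 among genes with a mean of at least 20 CPM. Without Chi3l3, its highest member, the list of alveolar macrophage identity summed to 28060 CPM, and 36 of 46 list sums moved by more than their SD without their highest member. The causes were not tested. Leaving out 1 of 4 libraries cannot move a mean by 1 SD, so levels were read by ratio. It moved 5 of the 46 list levels and 22 of the 221 named gene levels by over 1.5 times, through library 4 in 4 lists and 14 genes and through library 1 in 1 list and 8 genes. Without library 4 the B cell list averaged 1.90 CPM against 8.45 CPM with all 4, the NK cell list 0.259 against 0.941 CPM, the T cell list 6.72 against 11.3 CPM, the monocyte list 3.94 against 6.72 CPM and Mpeg1 234 against 404 CPM. Without library 1 the mast cell and basophil list averaged 0.744 against 1.17 CPM, Cxcl3 170 against 283 CPM, Ccl3 124 against 189 CPM and Ccl4 22.7 against 36.2 CPM. No paired analysis was possible because there is 1 group and no contrast. Counts limit precision below about the level of 3 counts.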

Other observations

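The values below belong to genes chosen after their values were seen. Metallothioneins, which bind zinc and copper, were high on the length-corrected scale and uneven. Mt1 stood 23rd by TPM, at 3217 ± 1631 TPM (SD, n = 4), and had 1100, 1204, 483 and 459 CPM in libraries 1 to 4. Mt2 had 125, 133, 29.3 and 30.8 CPM in the same libraries, so libraries 1 and 2 were above libraries 3 and 4 for both. Pfn1, the actin-binding protein profilin, was even, with 1360, 1381, 1364 and 1277 CPM. Irg1, which makes itaconate in activated macrophages, had 99.0, 73.7, 9.48 and 34.6 CPM, and Inhba, the activin A chain, had 57.9, 41.4, 6.84 and 29.8 CPM, both lowest in library 3.

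Genes that left the other 3 libraries by at least 2-fold in 1 library were counted among the 8646 genes with a mean of at least 5 CPM. Library 3 was lower for 79 genes and higher for 3, library 4 was higher for 21 and lower for 10, library 2 was lower for 2, and library 1 departed for none. Cotl1, an actin-binding protein, had 113, 119, 79.6 and 600.2 CPM, and Lyst, a regulator of lysosome size, had 28.1, 27.2, 25.7 and 79.6 CPM, both highest in library 4. Lmo4, a LIM-domain partner of transcription factors, had 122, 124, 254 and 127 CPM, highest in library 3. Rn45s, the precursor of ribosomal RNA, had 960, 1074, 1319 and 2018 CPM, and the nuclear RNA Malat1 had 599, 683, 721 and 765 CPM.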
